A study of Mus musculus with 6 samples.

Results

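Chemokines, interleukins and related cytokines are the secreted signals by which cells of the osteoblast lineage address blood cells, osteoclast precursors and each other. They were followed here in MC3T3-E1 cells, a mouse pre-osteoblast line derived from calvaria, grown in osteogenic medium with or without metformin, a biguanide that lowers blood glucose. The 85 genes are the protein-coding genes of the deposited table whose symbols name a Ccl, Cxcl, Cx3cl or Xcl chemokine, a numbered interleukin, Csf2, Csf3, Tnf, Lif, Osm, Ctf1, Clcf1 or Tslp, out of 54532 genes in the table and 22046 protein-coding genes. They carry 79 distinct symbols, because 7 entries lie on unplaced scaffolds and repeat the symbol of a gene elsewhere or of each other. Csf1, the Tgfb genes and other growth factors do not match these names and were not included.

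The control group held 3 samples of MC3T3-E1 cells induced for 3 days in osteogenic medium (β-glycerophosphate, ascorbic acid and 10 nM dexamethasone), and the metformin group held 3 samples that also received 0.2 mM metformin. The dose, the time and the medium come from the study's methods, because the sample labels name only the medium and the treatment. Both groups therefore carried dexamethasone, a glucocorticoid that lowers the transcription of many cytokine genes, and there was no arm without osteogenic medium. A clonal line at a single time point was sequenced, without osteoclasts or marrow cells beside it. The levels are FPKM, reads scaled by gene length and library size, and the reads behind them were recovered from the values.

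Chemokines are small secreted proteins that bind G protein-coupled receptors on moving cells and set the direction of their movement. Cxcl12 acts through Cxcr4 to hold blood stem cells in the marrow, Cx3cl1 is anchored to the membrane and binds Cx3cr1 on monocytes, and Ccl2 and Ccl7 draw monocytes through Ccr2. Interleukin 6 and its relatives Lif, Il11, Ctf1 and Clcf1 share the receptor subunit gp130, encoded by Il6st, and signal through Jak kinases and Stat3. Many of these genes are switched on by NF-kB, AP-1 and CREB factors at the promoter, and their mRNAs are often short-lived.

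The promoters of 4 of the genes are shown first, because the results below turn on their transcripts and because motifs of those factors can be read in them. They come from the 250 bases before the transcription start in RefSeq (GRCm38.p6, plus strand, 5′ to 3′), and all of them lie outside the exons. The window of Lif stops 11 bases short of the start for that reason, and distances are counted from the start itself. Cxcl12 is at chr6:117168285-117168534, Lif at chr11:4257318-4257556, Il6 at chr5:30012864-30013113 and Il33 at chr19:29924863-29925112. Capitals mark matches on either strand to AP-1 (TGANTCA), the cyclic AMP response core (TGACGT), the kappaB motif, the GC box (GGGCGG) or TATAAA.
Cxcl12: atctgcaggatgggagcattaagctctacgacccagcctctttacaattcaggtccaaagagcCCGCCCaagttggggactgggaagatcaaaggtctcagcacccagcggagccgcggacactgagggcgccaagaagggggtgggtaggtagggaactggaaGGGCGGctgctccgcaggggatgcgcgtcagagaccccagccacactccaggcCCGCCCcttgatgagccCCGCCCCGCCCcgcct
Lif: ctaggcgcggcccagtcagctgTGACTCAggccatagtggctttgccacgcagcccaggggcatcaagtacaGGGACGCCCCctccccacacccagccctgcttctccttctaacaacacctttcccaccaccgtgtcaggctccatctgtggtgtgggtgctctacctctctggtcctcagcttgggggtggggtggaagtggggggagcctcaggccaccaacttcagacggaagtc
Il6: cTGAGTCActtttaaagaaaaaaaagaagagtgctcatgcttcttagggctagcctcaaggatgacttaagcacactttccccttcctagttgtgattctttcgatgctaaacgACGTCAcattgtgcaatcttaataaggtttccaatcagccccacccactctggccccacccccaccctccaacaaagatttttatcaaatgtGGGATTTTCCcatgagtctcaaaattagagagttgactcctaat
Il33: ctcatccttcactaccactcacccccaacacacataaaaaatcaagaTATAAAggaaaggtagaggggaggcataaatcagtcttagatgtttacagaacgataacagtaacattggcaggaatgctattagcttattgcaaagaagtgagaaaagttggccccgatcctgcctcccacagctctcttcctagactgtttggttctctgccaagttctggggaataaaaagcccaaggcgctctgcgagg
The window of Il6 held an AP-1 match 249 bases before the start, a cyclic AMP response core at 136 bases and a kappaB match at 44 bases. That of Lif held an AP-1 match at 228 bases and a kappaB match at 178 bases. That of Cxcl12 held 5 GC boxes, of which the last 2 overlap each other, and none of the other motifs. That of Il33 held TATAAA 203 bases before the start and none of the others. A second RefSeq promoter of Il33, not printed here (chr19:29945540-29945789), held TATAAA 29 bases before its own start and none of the others. No match overlapped a match to another motif in these 4 windows. Among all 32841 RefSeq mouse promoters of 250 bases, 6.75% held an AP-1 match, 6.47% a cyclic AMP response core, 7.25% a kappaB match, 32.7% a GC box and 12.4% TATAAA. Of 19 genes looked up, 13 had a promoter in the RefSeq table, with 20 promoters in all, and Ccl2, Ccl5, Ccl7, Clcf1, Il34 and Il7 had none there. A match describes letters only.

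Summed over the genes, the recovered reads came to 18399861 to 20652437 in the control samples and 19256672 to 22111790 in the metformin samples. Where a gene had 0 reads, these depths allow it up to 3 reads, or 1.36e-05% to 1.63e-05% of the recovered reads of a sample, counting error only. The listed osteoblast markers spanned a wide range and did not move together. Col1a1 was at 927 to 1585 FPKM in control and 2366 to 2576 FPKM in metformin samples, and Spp1 at 6565 to 8357 and 2680 to 2727 FPKM. Alpl, the osteoblast alkaline phosphatase, was at 2.73 to 3.84 and 2.44 to 3.01 FPKM. Bglap was at 2.22 to 12.3 and 4.73 to 6.31 FPKM, and Phex at 0.356 to 0.714 and 0.146 to 0.196 FPKM. Among 14 leukocyte markers, Fcgr1, Tyrobp, Itgam and Cd3e had 0 reads in all 6 samples, and Ptprc had reads in control replicate 2 only. Their summed level was 24.7 to 36.8 FPKM in control and 34.5 to 38.5 FPKM in metformin samples, most of it Lyz2 and Cd14. Endothelial markers summed to 0.439 to 0.726 and 0.723 to 1.10 FPKM, and adipocyte markers to 1.65 to 3.18 and 1.89 to 2.31 FPKM. Control replicate 1 stood apart: across genes its log2 values had Pearson correlations of 0.960 and 0.952 with the other controls, which had 0.988 with each other, and its deviation from them followed the GC content of the genes (Spearman -0.668). Calls of named cytokine genes that change without it are given both ways. The study calls its 3 samples per group biological replicates, and the labels do not say what separates them.

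Most of the cytokine genes were silent or nearly so in both groups. Of the 85, 40 had 0 reads in all 6 samples, 13 had 1 to 9 reads in total, 14 had at least 10 reads but a mean under 0.5 FPKM, and 18 had a mean of at least 0.5 FPKM. The neutrophil chemokine genes Cxcl1, Cxcl2, Cxcl3, Cxcl5 and Cxcl15 had 0 reads, as did Tnf, Csf2, Csf3, Osm, Xcl1, Il10, Il12b, Il13, Il17a and Il17f. The inflammatory cytokine genes Il1a and Il1b were near that floor, with 0, 2 and 2 reads and 0, 0 and 1 reads in the control samples and 0 reads in each metformin sample. By family, 6 of 30 CC chemokine genes and 1 of 12 CXC chemokine genes reached 0.5 FPKM, against 4 of 7 genes of gp130 cytokines, 1 of 4 of the IL-1 family and 1 of 6 of the IL-17 family. None of the 5 genes of the IL-10 family and none of the 3 of the IL-12 family did. The 30 CC chemokine genes include the 7 repeated entries on unplaced scaffolds, and 6 of these are among the 40 with 0 reads.

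The summed level of the 85 genes was 66.7, 79.6 and 74.3 FPKM in the control samples and 108.6, 106.5 and 105.3 FPKM in the metformin samples, or 73.6 ± 6.48 and 106.8 ± 1.72 (SD, n = 3). The groups did not overlap. Cxcl12 alone made up 35.8% to 40.2% of this sum in the 6 samples, and Cxcl12 with Cx3cl1 47.5% to 51.5% in control and 55.4% to 58.8% in metformin samples. Without this pair the sum was 32.4, 39.3 and 39.0 FPKM in control and 48.5, 43.8 and 46.9 FPKM in metformin samples, so the groups stayed apart. CC chemokine genes summed to 4.17 to 5.21 FPKM in control samples and to 10.6 to 10.97 FPKM with metformin. In bulk RNA, more cells that make a transcript and more transcript per cell cannot be told apart.

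**Figure D1:**
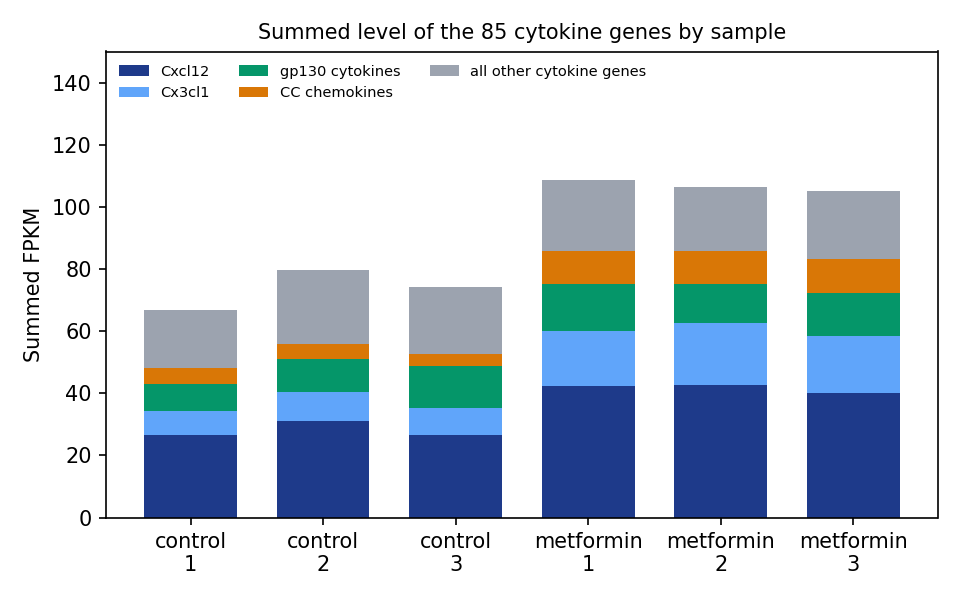
Summed FPKM (vertical axis, linear from 0) of the 85 cytokine genes in each of the 6 samples, split into Cxcl12, Cx3cl1, gp130 cytokines, CC chemokines and all others. The metformin bars stand at 105.3 to 108.6 FPKM and the control bars at 66.7 to 79.6 FPKM, and Cxcl12 is the tallest single block in every bar.

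Across all 12681 genes with a mean of at least 0.5 FPKM, 13.2% were called higher and 9.28% lower with metformin by limma-trend on log2(FPKM + 1) at a Benjamini-Hochberg adjusted p under 0.05. Of the 18 cytokine genes in that test, 7 were called higher (38.9%), 2 lower (11.1%) and 9 neither. The 7 were Ccl2, Ccl7, Lif, Cx3cl1, Il7, Cxcl12 and Il18, and the 2 were Il16 and Ctf1. The median log2 fold change was 0.39 over the 18 genes and 0.01 over all tested genes. Ccl2 and Ccl9 passed the limit only through the metformin samples, and Ccl27a only through the control samples. The 7 include Ccl2, whose FPKM call therefore adds nothing to its values. The 18 are the upper end of a list of which most members could not be tested, so these figures describe the expressed genes and not the whole list. Samples of the groups did not overlap for 13 of the 18, with metformin above for 9 and below for 4, where 23.6% and 20.5% of all tested genes lay so. The 9 also include Ccl2, for which this adds nothing to its values. Without control replicate 1 the same test called 10 cytokine genes higher, Ccl2 and Ccl9 among them, and 5 lower. The shares over all tested genes also grew, to 23.4% and 20.4%. On recovered reads, tested by voom over the 17468 genes with at least 10 reads, 10.5% of all genes were called higher and 7.19% lower. There 32 cytokine genes could be tested, of which 6 were called higher, 3 lower and 23 neither. Without control replicate 1 these counts were 9 higher and 6 lower, against 19.1% and 17.6% of all genes. Both tests called 7 of the genes in the same direction. Fold changes on the log2(FPKM + 1) scale understate the change of low genes, so both scales are given where they part.

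**Figure D2:**
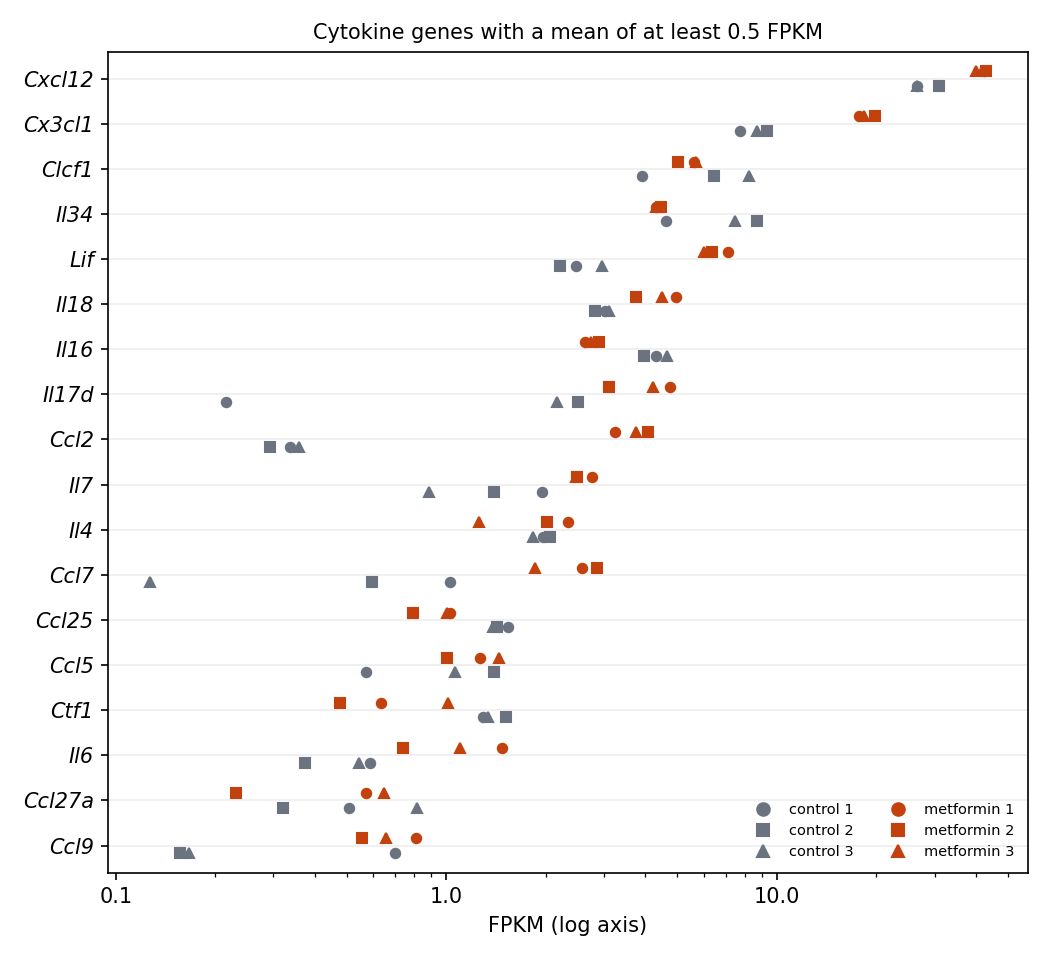
FPKM (horizontal log axis) of the 18 cytokine genes with a mean of at least 0.5 FPKM, 1 point per sample, grey for control and orange for metformin, with the marker shape giving the replicate. Cxcl12 tops the scale at 26.6 to 42.8 FPKM, the orange points of Ccl2 lie an order of magnitude right of the grey, and control replicate 1 of Il17d lies far left of its group.

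Cxcl12 (ENSMUSG00000061353, chr6:117168535-117181367) was the highest of all the cytokine genes in every sample. Its level was 26.6, 30.9 and 26.6 FPKM in the control samples and 42.4, 42.8 and 40.0 FPKM with metformin. Every metformin sample was above every control sample, and the group means differed 1.49-fold (28.1 ± 2.50 and 41.7 ± 1.55, SD, n = 3). The log2 fold change was 0.56 (SE 0.0936, adjusted p = 0.00711 by limma-trend) and 0.58 on reads (adjusted p = 0.00415 by voom), and both calls held with any library left out. The receptor that carries its signal, Cxcr4, was close to silent, with 0, 0 and 1 reads in control and 13, 4 and 10 reads in metformin samples. All 3 metformin samples were above the controls, and the ratio of scaled reads was 26.0 with a 95% counting interval of 4.29 to 1065. It reached 10 reads in all only through the metformin samples, so the call by voom (adjusted p = 0.0411) adds nothing to these reads, and it was lost without control replicate 2 or 3 (0.139 and 0.0774) and without metformin replicate 1 or 3 (0.115 and 0.114). Ackr3, which binds Cxcl12 and removes it, had 17, 32 and 11 reads in control and 35, 40 and 42 reads in metformin samples and was not called (adjusted p = 0.0982).

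Cx3cl1 (ENSMUSG00000031778, chr8:94772009-94782427), the membrane-bound chemokine fractalkine, was the next most abundant. It measured 7.73, 9.37 and 8.73 FPKM without and 17.7, 19.8 and 18.4 FPKM with metformin. The groups were far apart for their spread, with means of 8.61 ± 0.822 and 18.6 ± 1.04 FPKM (SD, n = 3) and a ratio of 2.16. Its log2 fold change was 1.03 (SE 0.0957, adjusted p = 0.000609 by limma-trend) and it was called in all 6 fits that left out a library. Its receptor gene Cx3cr1, a gene of monocytes and microglia, had 4, 0 and 0 reads in control and 0, 0 and 1 reads in metformin samples.

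Ccl2 (ENSMUSG00000035385, chr11:82035571-82037453) and Ccl7 (ENSMUSG00000035373, chr11:82045712-82047525) encode monocyte chemoattractants and lie side by side on the same strand of chromosome 11. Ccl2 had 7, 7 and 8 reads in the control samples and 73, 101 and 83 reads in the metformin samples. In FPKM this was 0.337, 0.293 and 0.358 against 3.23, 4.07 and 3.74. No other cytokine gene called in either test differed by as large a factor: the means, 0.329 ± 0.0329 and 3.68 ± 0.423 FPKM (SD, n = 3), stood 11.2-fold apart. On reads the log2 fold change was 3.40 (SE 0.365, adjusted p = 0.000245 by voom), and every fit without a library kept the call. The control samples alone held 22 reads, over the limit of 10 reads in all. On the FPKM scale the log2 fold change was 1.81 (SE 0.101). Ccl2 was tested there only because of the metformin samples, so that call (adjusted p = 0.000112 by limma-trend) adds nothing to these values. An opposite-strand gene, Gm17268, overlaps Ccl2, and the counting is not stated to use strand. Ccl7 had 15, 10 and 2 reads in control and 41, 50 and 29 reads in metformin samples. The groups did not overlap, but the controls were uneven, at 1.03, 0.595 and 0.127 FPKM, against 2.58, 2.86 and 1.86 FPKM with metformin. Its log2 fold change was 1.15 (SE 0.230, adjusted p = 0.0141 by limma-trend), and the call was lost without metformin replicate 1 or 2 (adjusted p = 0.0601 and 0.0638). On reads it was 2.38 (adjusted p = 0.0231), lost without control replicate 2, metformin replicate 1 or metformin replicate 2 (0.0662, 0.0691 and 0.0812). Their shared receptor Ccr2 had 0 reads in all 6 samples. Ccl12, another mouse ligand of Ccr2, had 0 reads as well.

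The other CC chemokine genes did not move together. Ccl9, which binds Ccr1 on myeloid cells, had 39, 10 and 10 reads in control and 49, 37 and 39 reads in metformin samples. The high control was replicate 1: with it the difference was not called (log2 fold change 0.34, adjusted p = 0.218 by limma-trend), and without it the log2 fold change was 0.53 with an adjusted p of 0.0138. Ccl9 was tested on FPKM only because of the metformin samples, so that call adds nothing to the reads. On reads Ccl9 was also called without control replicate 1 (1.99, adjusted p = 0.00276 by voom). Ccl5, a chemokine for T cells and monocytes, measured 0.570, 1.39 and 1.06 FPKM against 1.26, 1.00 and 1.44 FPKM, with overlap and no call (adjusted p = 0.523). Ccl25, the ligand of Ccr9 known from thymus and gut, went the other way, at 1.54, 1.42 and 1.38 FPKM in control and 1.03, 0.795 and 1.01 FPKM in metformin samples. Each metformin sample was lower, by 1.53-fold in the means. This narrowly missed the threshold on FPKM (log2 fold change -0.33, adjusted p = 0.0508), was called there without control replicate 1 (-0.31, adjusted p = 0.0487), and passed it on reads (-0.63, adjusted p = 0.0260), where the call was lost without control replicate 2 (0.0662) and without metformin replicate 1, 2 or 3 (0.0732, 0.142 and 0.0787). Ccl25 overlaps Elavl1, so its reads could be shared. Ccl27a, a skin chemokine gene that has near-identical copies, had 22, 16 and 38 reads against 27, 12 and 30 reads and was not called (adjusted p = 0.840). With 0, 2 and 0 reads in control and 4, 5 and 10 reads in metformin samples, Ccl3 was above its controls in all 3 samples, at a ratio of 9.15 (95% counting interval 2.21 to 81.1), but was not called on reads (adjusted p = 0.0702), where it was tested only because of the metformin samples.

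Lif (ENSMUSG00000034394, chr11:4257557-4272514) had the largest fold change among the called gp130 cytokine genes. This cytokine, named for its effect on leukaemia cells, acts on osteoblasts and osteoclasts through Lifr and gp130. It was at 2.47, 2.20 and 2.96 FPKM in the control samples and 7.13, 6.37 and 6.01 FPKM in the metformin samples. All metformin samples were above 6 FPKM and all controls below 3 FPKM, with means of 2.54 ± 0.384 and 6.50 ± 0.570 FPKM (SD, n = 3) and a ratio of 2.56. This gave a log2 fold change of 1.08 (SE 0.110, adjusted p = 0.000900 by limma-trend) and 1.36 on reads (adjusted p = 0.000268), called with any library left out.

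Il6 (ENSMUSG00000025746, chr5:30013114-30019981), the prototype of the family, was low: 26, 19 and 26 reads in control and 71, 39 and 52 reads in metformin samples. Each metformin sample was above each control, and the means of 0.501 ± 0.113 and 1.10 ± 0.368 FPKM (SD, n = 3) differed 2.20-fold. The difference missed the threshold in both tests (log2 fold change 0.47, adjusted p = 0.0691 by limma-trend, and 1.09, adjusted p = 0.0674 by voom). Without control replicate 1 it was called in both, with adjusted p of 0.0473 and 0.0230. On reads it was also called without metformin replicate 2 (1.36, adjusted p = 0.0452 by voom).

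Ctf1, which encodes cardiotrophin-1, a ligand of Lifr and gp130, went down. It was at 1.29, 1.52 and 1.34 FPKM in control and 0.635, 0.478 and 1.01 FPKM in metformin samples, 1.95-fold lower in the means, with no overlap. The call was a narrow one: log2 fold change -0.49 (SE 0.136, adjusted p = 0.0447 by limma-trend) and -1.03 on reads with adjusted p = 0.0506, which became -1.08 and 0.0148 without control replicate 1. On FPKM it was lost without control replicate 2 or 3 (adjusted p = 0.124 and 0.0871) and without metformin replicate 1 or 2 (0.147 and 0.149). Ctf2 overlaps it on the opposite strand. Clcf1, a ligand of the Cntfr complex, was among the more abundant members but scattered in control samples, at 3.91, 6.46 and 8.25 FPKM against 5.63, 5.03 and 5.70 FPKM. It was not called (log2 fold change -0.11, adjusted p = 0.759), although without control replicate 1 it was called lower (-0.37, adjusted p = 0.0336), and part of its transcript is identical to another gene, AC109138.7. Il11, a cytokine of bone remodelling, had 15, 3 and 5 reads in control and 4, 0 and 2 reads in metformin samples, with overlap and no call (adjusted p = 0.237).

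**Figure D3:**
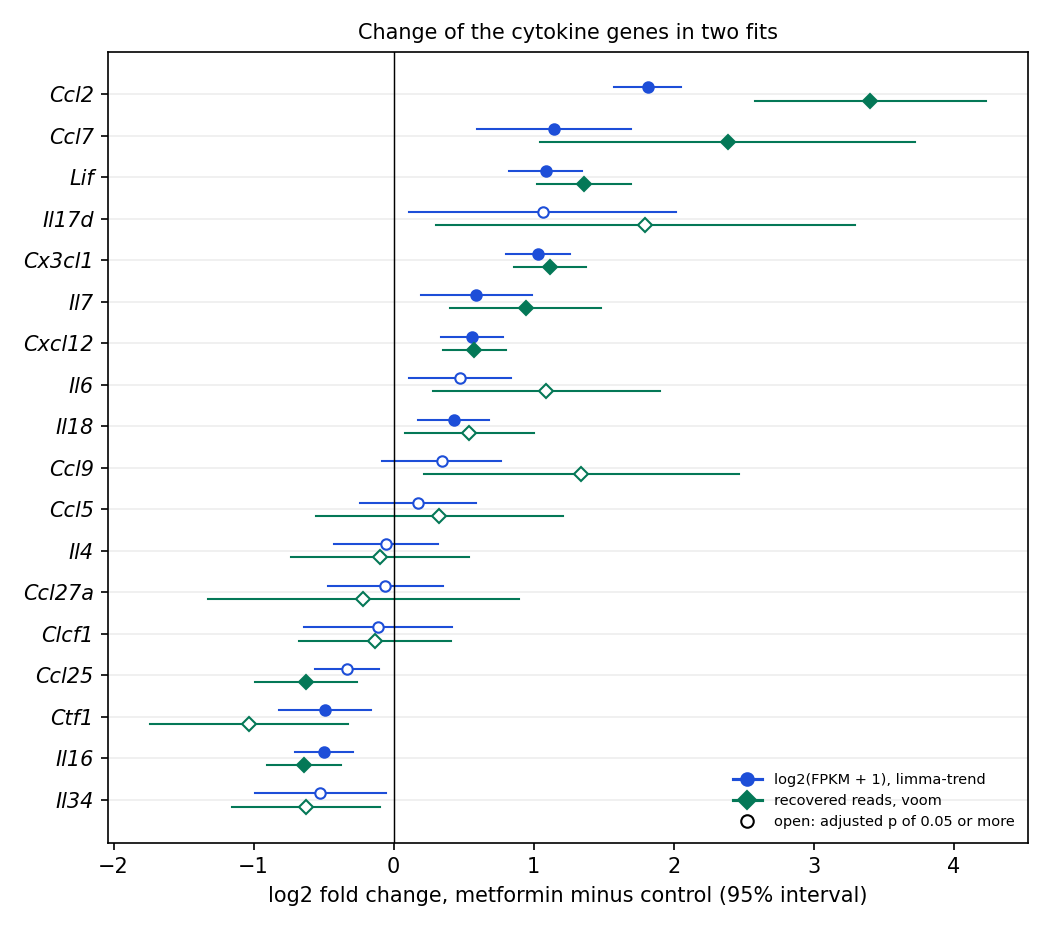
Log2 fold change, metformin minus control, with its 95% interval (horizontal axis) for the 18 cytokine genes, in blue on the log2(FPKM + 1) scale and in green on recovered reads, with open symbols for an adjusted p of 0.05 or more. Ccl2 lies furthest right on both scales, at 1.81 and 3.40, the green symbols of low genes lie further from 0 than the blue, and Il17d has an interval from 0.11 to 2.02 on the FPKM scale.

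Of the IL-1 family, Il18 and Il33 moved in opposite directions. Il18, an interleukin made as a precursor that inflammasome proteases cleave, was at 3.03, 2.82 and 3.11 FPKM in control and 4.94, 3.74 and 4.48 FPKM in metformin samples. The groups did not overlap and the means differed 1.47-fold. Its log2 fold change of 0.43 was called on FPKM (SE 0.105, adjusted p = 0.0294 by limma-trend) but not on reads (0.54, adjusted p = 0.106). The FPKM call was lost without control replicate 2 or 3 (0.0900 and 0.0538) and without metformin replicate 1 or 3 (0.122 and 0.114). Il18 overlaps Bco2 and Tex12 on the opposite strand. Il18rap, a subunit of its receptor, was at 0.989 to 1.67 FPKM in control and 1.10 to 1.35 FPKM in metformin samples (adjusted p = 0.968), and Il18r1, the binding subunit, had at most 1 read in any sample. The antagonist Il18bp, the only gene of the 8 listed antagonists and decoys to reach the FPKM test, was not called either (log2 fold change -0.11, adjusted p = 0.525).

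Il33 (ENSMUSG00000024810, chr19:29925114-29960718), a nuclear cytokine that damaged cells release, had 37, 37 and 19 reads in control samples and 8, 5 and 4 reads in metformin samples. Every metformin sample lay below every control, and the means of 0.549 ± 0.191 and 0.0968 ± 0.0374 FPKM (SD, n = 3) differed 5.68-fold. It was under the FPKM limit and was tested on reads alone, with a log2 fold change of -2.40 (SE 0.535, adjusted p = 0.0144 by voom). The call was lost without metformin replicate 1, 2 or 3 (adjusted p = 0.0508, 0.0786 and 0.0721), while without control replicate 1 it was 0.00441. Its receptor gene Il1rl1, which encodes ST2, was far more abundant and was also lower: 8.51, 6.74 and 7.29 FPKM in control and 4.12, 4.62 and 4.21 FPKM in metformin samples. The log2 fold change of Il1rl1 was -0.67 (SE 0.103, adjusted p = 0.00485 by limma-trend), called with any library left out. Il1rap, its co-receptor, was not called (adjusted p = 0.123). Il1rn, the soluble antagonist of the IL-1 receptor, had 34, 61 and 22 reads in control and 12, 12 and 9 reads in metformin samples. It was called lower on reads (log2 fold change -1.73, adjusted p = 0.0369), but not without control replicate 2 (0.0748) or without metformin replicate 1, 2 or 3 (0.114, 0.131 and 0.132).

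Il7, the growth factor of early B and T cells that marrow stroma supplies, was at 1.95, 1.40 and 0.889 FPKM in control and 2.77, 2.49 and 2.47 FPKM in metformin samples. The 3 metformin samples were close together and above all controls, 1.82-fold in the means. This gave a log2 fold change of 0.59 (SE 0.166, adjusted p = 0.0464 by limma-trend) and 0.94 on reads (adjusted p = 0.0257). The FPKM call was lost without control replicate 2 or 3 (0.111 and 0.0653) and without metformin replicate 1, 2 or 3 (0.153, 0.128 and 0.122). The read call was lost without control replicate 2 (0.0776) and without metformin replicate 1, 2 or 3 (0.1001, 0.0856 and 0.0802). Without control replicate 1 the adjusted p on FPKM was 0.00376. Il7r, which encodes the receptor chain for Il7 on lymphoid cells, had 0 reads in all samples. Il4, a type 2 cytokine, overlapped between the groups at 1.96, 2.06 and 1.82 FPKM against 2.34, 2.02 and 1.26 FPKM, with a log2 difference of -0.06 with a 95% interval of -0.43 to 0.31.

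Il16, whose product is cut from a large precursor and binds CD4, was called lower. It measured 4.32, 3.95 and 4.64 FPKM in control and 2.63, 2.90 and 2.73 FPKM in metformin samples. The groups were well separated, 1.56-fold in the means (4.30 ± 0.343 and 2.76 ± 0.134, SD, n = 3). The log2 fold change was -0.50 (SE 0.0863, adjusted p = 0.00822 by limma-trend), lost only without metformin replicate 1 (0.0527), and -0.64 on reads (adjusted p = 0.00527), called with any library left out. Il16 spans other genes, including Stard5 on the opposite strand.

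Il34 and Il17d rest on control replicate 1. Il34, the second ligand of the macrophage receptor Csf1r, was at 4.61, 8.69 and 7.45 FPKM in control and 4.32, 4.47 and 4.30 FPKM in metformin samples. All metformin samples lay below all controls, although control replicate 1 was close to them. The test gave a log2 fold change of -0.52 (adjusted p = 0.105), and without control replicate 1 it gave -0.75 (adjusted p = 0.000623). Csf1r itself had 1 to 3 reads in control and 4 to 8 reads in metformin samples. Il17d, a member of the IL-17 family, was at 0.215, 2.51 and 2.16 FPKM in control and 4.75, 3.10 and 4.23 FPKM in metformin samples. Here control replicate 1 was the lowest sample by far, with 5 reads against 54 to 120 in the others. With all samples the log2 fold change was 1.07 (95% interval 0.11 to 2.02, adjusted p = 0.106 by limma-trend), and without that library 0.58 with an adjusted p of 0.0220.

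Below 0.5 FPKM the reads were few, and Il33 was the only called gene of the 14 with at least 10 reads. Cxcl10, an interferon-induced chemokine gene, had 22, 19 and 13 reads in control and 7, 18 and 21 reads in metformin samples. Ccl28 had 21, 6 and 16 against 21, 12 and 9 reads, and Il12a, a subunit shared by interleukins 12 and 35, had 13, 15 and 16 against 14, 8 and 18 reads. These groups overlapped and none was called. Cxcl16, a scavenger receptor and chemokine, had 0, 2 and 0 against 4, 5 and 9 reads, and Ccl17, a T cell chemokine, 0, 4 and 1 against 5, 5 and 7 reads. Both were above their controls in all 3 metformin samples, with adjusted p of 0.0692 and 0.152 on reads, and both reached 10 reads only through those samples. Tslp had 3, 7 and 0 against 1, 10 and 6 reads and Il17c 0, 5 and 2 against 0, 1 and 12 reads, the latter sharing a locus and strand with Gm20388. Among the 32 genes with at least 10 reads, metformin samples were above the controls for 12, below for 5 and overlapping for 15, where 19.7% and 18.5% of all such genes were above and below. The 12 include Ccl3, Cxcl16 and Ccl17, which entered this set only through the metformin samples, so counting them adds nothing to their reads. The genes under 10 reads were not tested. Among them Il19 had 6, 3 and 0 reads in control and 0 in each metformin sample. Against a floor of 3 reads over the metformin group the ratio was 3.11, with the control reads taken as exact. Control replicate 3 was at 0 as well.

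**Figure D4:**
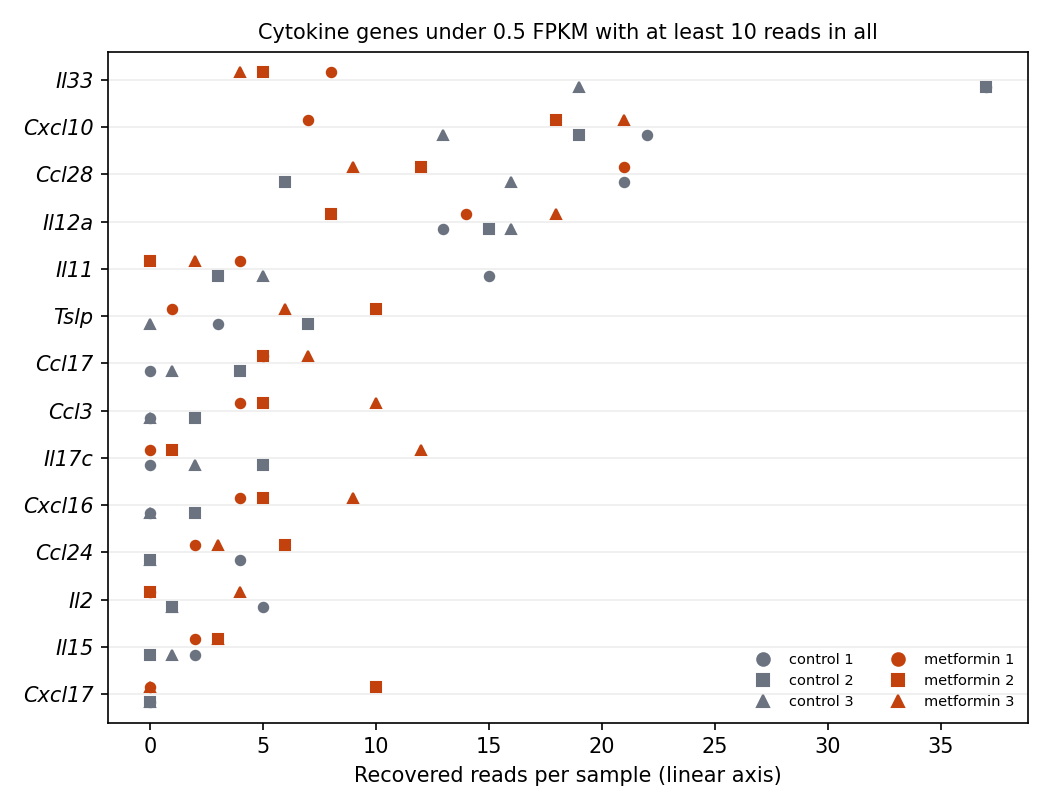
Recovered reads per sample (horizontal axis, linear) for the 14 cytokine genes with at least 10 reads in all and a mean under 0.5 FPKM, grey for control and orange for metformin. In the row of Il33 the orange points, at 4 to 8 reads, lie left of the grey, at 19 to 37 reads, in those of Ccl3, Cxcl16 and Ccl17 they lie right of it, and the other rows lie at 22 reads or fewer in every sample.

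Receptors decide which of these signals a cell can read. Of 24 cytokine receptor genes tested among 45 listed, 1 was called higher (4.17%) and 4 lower (16.7%), against 13.2% and 9.28% of all tested genes, with a median log2 fold change of -0.07. Without control replicate 1 there were 4 higher and 7 lower, against 23.4% and 20.4% of all tested genes. Il6ra, the receptor chain that binds Il6, fell furthest: it was at 7.93, 5.45 and 7.61 FPKM in control and 2.04, 2.19 and 2.17 FPKM in metformin samples. Its groups were far apart, with a log2 fold change of -1.34 (SE 0.141, adjusted p = 0.000904 by limma-trend). Il11ra1, the receptor chain for Il11, was at 32.8, 31.7 and 31.9 FPKM in control and 20.6, 21.8 and 21.9 FPKM in metformin samples (log2 fold change -0.56, adjusted p = 0.00297), and it overlaps Ccl27a. These 2 and Il1rl1 were called with any library left out. Il4ra was lower by -0.46 (adjusted p = 0.0328) and Il17rd, of the IL-17 receptor family, higher by 0.39 (adjusted p = 0.0459). The call of Il4ra was lost without control replicate 2 (0.0511) and without metformin replicate 1, 2 or 3 (0.124, 0.106 and 0.113). That of Il17rd was lost without control replicate 2 or 3 (0.104 and 0.0862) and without metformin replicate 1, 2 or 3 (0.153, 0.119 and 0.156).

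The signalling subunits did not pass the test. Il6st was at 19.0, 14.5 and 15.6 FPKM in control and 18.8, 19.8 and 18.4 FPKM in metformin samples (adjusted p = 0.230, and 0.00706 without control replicate 1, where it was called higher). Lifr was at 40.1, 29.7 and 26.5 against 30.2, 29.2 and 29.9 FPKM (log2 fold change -0.08, adjusted p = 0.738). Osmr was at 8.77, 6.08 and 5.89 against 5.61, 5.71 and 5.45 FPKM (adjusted p = 0.271). Of 23 chemokine receptor genes, 9 had 0 reads. Only Ackr4, a decoy receptor for Ccl25 and related chemokines, and Ccr10, the receptor of Ccl27 and Ccl28, reached the FPKM test. Limma-trend gave 0 calls there. It gave 1 lower gene at an unadjusted p under 0.05, a threshold at which the share of all genes is not given here. Ackr4 was the most abundant, at 25.8, 23.9 and 20.4 FPKM in control and 17.6, 18.7 and 18.5 FPKM in metformin samples, without overlap (log2 fold change -0.33, adjusted p = 0.0637). It was called lower without control replicate 1 (-0.26, adjusted p = 0.0351) and without control replicate 3 (-0.42, adjusted p = 0.0237). Xcr1, a dendritic cell receptor, had 1, 0 and 0 against 11, 9 and 5 reads and, like Cxcr4, was tested on reads only because of the metformin samples (adjusted p = 0.0229), a call lost without control replicate 2 or 3 (0.0884 and 0.0768) and without metformin replicate 1 or 2 (0.0779 and 0.0734).

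Downstream of the receptors, the NF-kB list went both ways. Of 28 tested genes, 5 were called higher (17.9%) and 4 lower (14.3%), against 13.2% and 9.28% of all tested genes, with a median log2 fold change of -0.01. On reads 4 were called higher and 3 lower, where 10.5% and 7.19% of all genes were. Without control replicate 1 the FPKM test called 9 higher and 8 lower, against 23.4% and 20.4% of all tested genes. Nfkbiz, an inducible nuclear partner of NF-kB, rose from 2.68, 2.74 and 2.41 FPKM to 9.91, 7.03 and 7.19 FPKM, a log2 fold change of 1.31 (SE 0.129, adjusted p = 0.000936 by limma-trend). Rel, which encodes the subunit c-Rel, rose by 0.86 (adjusted p = 0.00468), from 1.16 to 1.89 FPKM in control to 3.24 to 3.46 FPKM in metformin samples. Among the lower genes were Tnip1, an inhibitor that works with A20, by -0.82 (adjusted p = 0.00870), and Tab1, a partner of the kinase Tak1, by -0.68 (adjusted p = 0.00822). These 4 were called with any library left out. Irak2 (0.63, adjusted p = 0.0105), Tab2 (0.44, 0.0370) and Irak1 (0.29, 0.0388) were the other higher genes. Traf2 (-0.50, adjusted p = 0.0137) and Nfkbia (-0.36, 0.0484) were the other lower genes, the latter encoding the inhibitor that holds NF-kB in the cytoplasm. Of these, Irak2 was lost without metformin replicate 1 or 3 (0.0550 and 0.0529), and Traf2 without control replicate 2 or any metformin replicate (0.0515 to 0.0730). Tab2, Irak1 and Nfkbia lost their calls without each library other than control replicate 1 (0.0840 to 0.136, 0.0548 to 0.155 and 0.0906 to 0.185). Rela was not called (adjusted p = 0.908), but its control replicate 1 was low, and without that library it was called lower (-0.26, adjusted p = 0.0103).

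In the JAK-STAT and SOCS list, 3 of 20 tested genes were called lower (15.0%) and 0 higher, against 9.28% and 13.2% of all tested genes, with a median of -0.04. Without control replicate 1 there were 5 lower and 4 higher, against 20.4% and 23.4% of all tested genes. At an unadjusted p under 0.05 limma-trend gave 6 lower and 3 higher, a threshold at which the share of all genes is not given here. Voom on reads called 3 lower and 0 higher, where 7.19% and 10.5% of all genes were. Stat2, a factor of the type I interferon response, fell from 8.92, 7.06 and 7.60 FPKM to 3.62, 3.55 and 3.46 FPKM (log2 fold change -0.96, adjusted p = 0.000936). Stat3, which carries gp130 signals to the nucleus, fell from 25.1, 23.7 and 25.0 FPKM to 17.8, 17.3 and 16.5 FPKM (-0.49, adjusted p = 0.00555). Both were called with any library left out. Pias1 fell by 0.41 on the log2 scale (adjusted p = 0.0194), lost without control replicate 2 (0.0529) and without metformin replicate 1, 2 or 3 (0.0985, 0.0809 and 0.0783). Socs3, the feedback inhibitor of gp130 receptors, was at 14.4, 23.3 and 26.4 FPKM in control and 33.7, 33.9 and 30.7 FPKM in metformin samples. Its groups did not overlap, and it was not called (adjusted p = 0.0769). Of the fits that left out a library, those without control replicate 1 (0.00843) and without control replicate 3 called it higher.

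Of 11 genes whose products govern the decay of cytokine mRNAs, 2 were called higher (18.2%, against 13.2% of all tested genes) and 0 lower by limma-trend. The counts were the same at an unadjusted p under 0.05, where the share of all genes is not given here. They were also the same by voom on reads, which called 10.5% of all genes higher and 7.19% lower. Zfp36, which encodes tristetraprolin and marks AU-rich mRNAs such as those of Tnf and Il6 for decay, was at 5.78, 15.96 and 13.3 FPKM in control and 34.7, 34.0 and 31.5 FPKM in metformin samples. All metformin samples were above all controls, with a log2 fold change of 1.54 (SE 0.319, adjusted p = 0.0169 by limma-trend). The call was lost without metformin replicate 1, 2 or 3 (0.0654, 0.0666 and 0.0585), and without control replicate 1, the lowest sample, the change was 1.14 (adjusted p = 0.000192). Hnrnpd, another binder of AU-rich mRNAs, was higher by 0.54 (adjusted p = 0.0185), lost without metformin replicate 1, 2 or 3 (0.0871, 0.0690 and 0.0744).

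**Figure D5:**
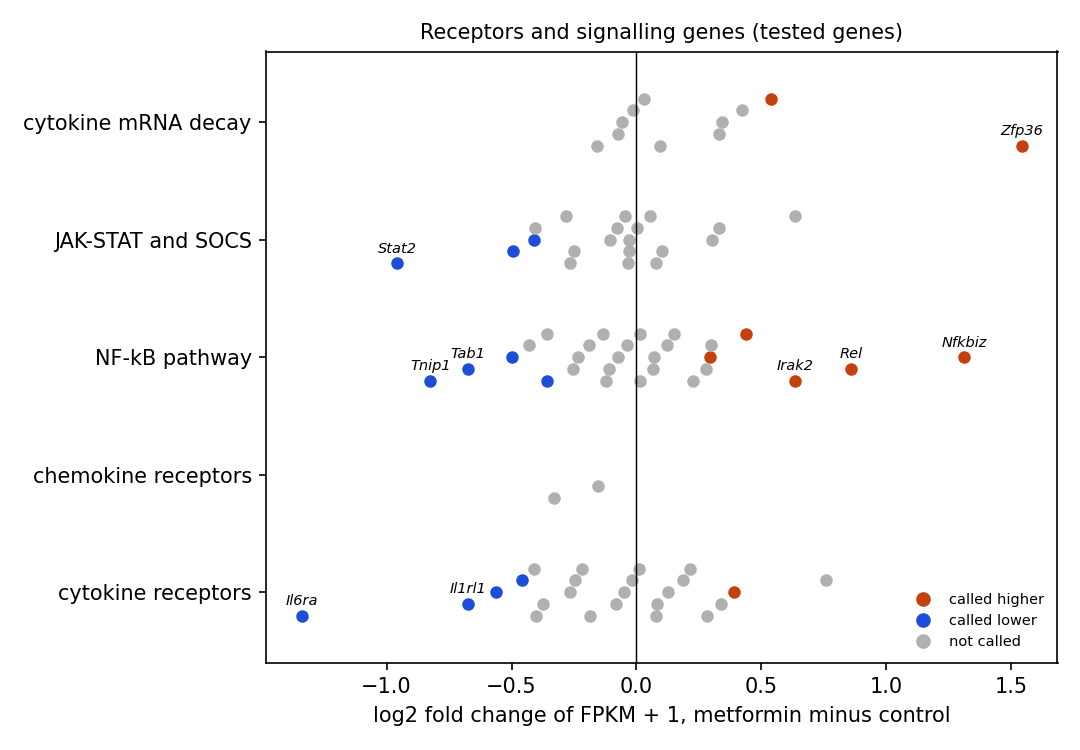
Log2 fold change of FPKM + 1, metformin minus control (horizontal axis), of each tested gene in 5 lists of receptors and signalling genes, orange where called higher, blue where called lower and grey otherwise. Zfp36 lies furthest right at 1.54 and Il6ra furthest left at -1.34, and the NF-kB row has called genes on both sides of 0.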

How the data were processed

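The authors sequenced total RNA (TruSeq libraries) of 6 samples and deposited 1 table without a named unit. Its values are FPKM: the authors divided each gene's reads by its listed length and an effective library size, and value times length is a whole multiple of a single step per sample for 100% of the values (tolerance 0.001), which gave the reads. The submitters' processing notes list Bowtie 0.12.2, mm8 and mm9 without a role. The counting tool, its use of strand and the annotation are not given in the sources used here. Coordinates are the table's, and 82 of the 85 genes have the same ones in GENCODE M21 (GRCm38). The authors' own test was DESeq2, and no column of comparisons was used. The table held 0 further columns of sample values.

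Samples were grouped by their titles. The test was limma-trend (limma 3.58.1, R 4.3.3) on log2(FPKM + 1), run on 12681 genes that averaged at least 0.5 FPKM, with Benjamini-Hochberg adjustment over all of them and a threshold of 0.05. Recovered reads of the 17468 genes with at least 10 reads in all were tested by limma voom with the authors' effective library sizes. P-values set the difference between the groups against the spread among these samples, with information on that spread shared across genes. What separates the samples of a group is not given in the labels. On simulated data, 177 of 200 changed genes were called on FPKM, 0 with the wrong sign and with 13 unchanged genes, and 143 on reads with 4. The simulation gave every gene the same dispersion, had changes larger than many of those called here, and held no deviant library like control replicate 1. Its figures therefore do not give the power or the error rate in these data. Alternatives were a pseudocount of 0.1, no filter, at least 10 reads in every sample, scaling by total reads, a GC correction per library (spline, 5 degrees of freedom), a replicate block and leaving out each sample. Every cytokine gene over 0.5 FPKM was named, with the called and the 10 most read genes under it, the called genes of each list (at most 6 each way) and tested receptors. The genes and lists were chosen with earlier results of these data known. Near-identical transcripts share 95% identity across 200 bases or more (BLAST 2.17.0), and 8 of the 85 genes have them. The 7 entries on unplaced scaffolds had no transcript in that search, so near-identical copies of theirs are not counted. Ratios of low counts have exact 95% intervals, which cover counting error only. Promoters are from RefSeq. Figures were drawn with matplotlib 3.10.9. A few listed genes are not reported here.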

Additional observations from a re-analysis of the deposited data

How the results depend on the processing

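With 3 samples per group, counts moved with the libraries used. Leaving out each in turn gave 938 to 2969 higher and 495 to 2590 lower genes in all, 4 to 10 higher and 0 to 5 lower cytokine genes on FPKM, and 1 to 6 lower on reads, and the upper ends came without control replicate 1. For the lists the ranges were 0 to 1 lower for chemokine receptors, 0 to 4 higher and 3 to 7 lower for cytokine receptors, 2 to 9 and 2 to 8 for NF-kB, 0 to 4 and 2 to 5 for JAK-STAT and SOCS, and 0 to 2 higher for mRNA decay.

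The GC correction called 2027 genes lower in all, 1 chemokine receptor lower, 4 cytokine receptors higher and 7 lower, 7 NF-kB genes lower, and 3 JAK-STAT and SOCS genes higher and 6 lower. A pseudocount of 0.1 left 1 cytokine gene lower on FPKM. Scaling by total reads gave 1 chemokine receptor lower and 0 cytokine receptors higher, and with no filter 0 cytokine receptors were higher. The labels do not say whether samples of equal replicate number were paired. Deviations from the group means correlated at -0.053, 0.00027 and -0.055 between samples of equal number. With 3 samples per group and control replicate 1 far from the other controls, these values cannot decide whether the samples were paired. A block on that number called 1161 genes higher and 698 lower, 1 cytokine gene lower on FPKM, 0 cytokine receptors, 3 NF-kB genes and 1 mRNA decay gene higher. The block with the GC correction gave 1 chemokine receptor lower, 3 cytokine receptors, 1 JAK-STAT and SOCS gene and 1 mRNA decay gene higher.

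No called cytokine gene and no called gene named from the lists changed sign under these alternatives. The other called genes were not checked for this. Among named genes without a call, the log2 fold change of Il18rap on FPKM was -0.0080 with the GC correction, with or without the block, and -0.0046 with total reads. On reads, Ccl28 was at -0.014 by limma-trend without filter, -0.086 with the block and -0.0015 with total reads, and Il17c at -0.0032 with total reads. Leaving out each library gave log2 fold changes on both sides of 0 for these genes. On FPKM they ran from -0.17 to 0.070 for Ccl27a, -0.37 to 0.091 for Clcf1, -0.075 to 0.14 for Il18rap, -0.18 to 0.11 for Il4 and -0.21 to 0.084 for Lifr. On reads they ran from -0.56 to 0.26 for Ccl27a, -0.56 to 0.41 for Ccl28, -0.0059 to 0.61 for Ccl5, -0.42 to 0.10 for Clcf1, -0.67 to 0.068 for Cxcl10, -0.55 to 0.11 for Il12a, -1.25 to 1.00 for Il17c, -0.27 to 0.15 for Il4 and -0.19 to 1.77 for Tslp. The cause was not tested.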
